A study of Homo sapiens with 6 samples.

Results

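The 9 genes described here encode the protease-activated receptors (F2R, F2RL1, F2RL2 and F2RL3), tissue factor (F3) and its inhibitor TFPI. They also encode the Kunitz-type protease inhibitor TFPI2, thrombomodulin (THBD) and the endothelial protein C receptor (PROCR). They were taken by symbol from a table of 58735 genes, and each symbol matched 1 row. The set was chosen partly on its own readout, because F2RL3 differed very much between the cells compared, so the differences below are given as descriptions and no p-value is given for any of the 9. The study sequenced RNA of MDA-MB-231 cells, an established human breast cancer line used as a model of disease without hormone receptors. The parent group held 3 libraries of the wild-type line itself, and the ADRr group held 3 libraries of a line made from it by stepwise exposure to Adriamycin (ADR, doxorubicin) at 50 to 1000 nM, after which resistant clones were isolated by limiting dilution. No source says whether the sequenced ADRr cells were 1 clone or several, and what is particular to a clone and what belongs to resistance cannot be told apart. The labels give the same serum-containing medium for all 6 libraries, while the methods have resistant cells expanded with drug in the medium, and no source says whether ADR was present when RNA was taken. Nor does any source say whether the 3 libraries of a group came from separate cultures, so the spread between them may be technical. The series text also mentions 3 time points that no label assigns, so if the libraries of a group were taken at different times, each SD, SE and n = 3 below includes that difference. The comparison asks how the resistant cells differ from the cells they were derived from.

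Protease-activated receptors are G protein-coupled receptors that carry their own ligand. A protease such as thrombin or trypsin cuts the extracellular amino end, and the new end folds back and activates the receptor. Tissue factor on a cell surface binds factor VII and starts the coagulation cascade that makes thrombin, TFPI blocks that first complex, and thrombomodulin together with the protein C receptor turns thrombin from a clotting enzyme into an activator of anticoagulant protein C. MDA-MB-231 cells are known for high tissue factor and for signalling through the receptors of thrombin and trypsin.

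The tethered ligand differs among the 4 receptors, and its coding sequence is shown first. Each line gives 60 bases of the coding strand, 5′ to 3′, from the GENCODE release 29 transcripts (GRCh38), all in exon 2 of 2, and the capitals mark the 6 codons of the new amino end that cleavage exposes.
F2R: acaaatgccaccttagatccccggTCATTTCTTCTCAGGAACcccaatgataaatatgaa
F2RL1: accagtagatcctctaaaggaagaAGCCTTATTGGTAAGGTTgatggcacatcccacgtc
F2RL2: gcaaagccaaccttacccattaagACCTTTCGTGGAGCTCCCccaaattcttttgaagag
F2RL3: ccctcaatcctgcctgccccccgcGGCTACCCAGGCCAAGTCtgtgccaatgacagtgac
They lie at chr5:76732325-76732384 on the plus strand for F2R, chr5:76832692-76832751 on the plus strand for F2RL1, chr5:76618557-76618616 on the minus strand for F2RL2 and chr19:16889581-16889640 on the plus strand for F2RL3. The new end starts at residue 42 of 425 in F2R, residue 37 of 397 in F2RL1, residue 39 of 374 in F2RL2 and residue 48 of 385 in F2RL3. No capital stretch is the same in any 2 receptors.

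Each library held between 15983985 and 18272314 counted reads, at which depth 3 reads, taken as the floor of detection, equal 0.164 to 0.188 CPM (reads per 1e6 counted reads). Libraries of one group correlated at 0.989 to 0.993 and libraries of different groups at 0.935 to 0.937, as Pearson's r of log2 CPM across tested genes, so no library stood apart from its group. Markers were counted by their mean in each group. Of the 10 markers of the labelled cells, 8 reached a mean of 1 CPM in both groups, including VIM, CD44 and KRT8, while ESR1 had 0 or 1 count and PGR had 0 counts in all libraries. The levels of these markers differed between the groups. KRT8 stood at 582 to 661 CPM in parent and 146 to 162 CPM in ADRr, and VIM at 499 to 528 and 345 to 356. KRT18, KRT19, ERBB2 and GATA3 were also lower in every ADRr library than in any parent library. CD44 (833 to 883 and then 1480 to 1490 CPM) and EPCAM were higher. None of 9 platelet and megakaryocyte markers reached a mean of 1 CPM, although GP1BA and ITGA2B each stood at 1.14 CPM in parent replicate 2, and their summed level was 1.62 to 3.47 CPM in parent and 1.15 to 2.26 CPM in ADRr. Of 10 endothelial markers only KDR and ESAM reached a mean of 1 CPM, and the summed level was 34.6 to 36.8 CPM in parent and 77.5 to 87.2 CPM in ADRr, with ESAM at 31.3 to 31.4 CPM in parent and 68.5 to 77.6 CPM in ADRr. Among the other endothelial markers, VWF had 0, 0 and 0 counts in parent and 2, 7 and 4 in ADRr. TIE1 had 3, 0 and 2 and then 8, 8 and 7. TEK went the other way, with 8, 2 and 3 and then 1, 1 and 1. PECAM1 overlapped, with 10, 8 and 4 and then 4, 10 and 13. CLDN5 had 0 to 4 counts, and CDH5, EMCN and ERG had 0 to 2, over all libraries. Of 8 leukocyte markers only CD14 and CSF1R reached a mean of 1 CPM, the sums were 8.83 to 12.5 CPM and 6.95 to 7.39 CPM, and PTPRC had 0 to 2 counts. In bulk RNA, more cells with a transcript and more transcript per cell cannot be told apart.

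All 9 genes passed the filter on low counts, which left 15242 genes for the fit. A gene was called when its adjusted p did not exceed 0.05 and it differed by 1.2-fold or more. Of the 9 genes 4 were called higher in ADRr (F2RL3, TFPI2, THBD and F2RL1) and 0 were called lower, while 29.2% of all tested genes were called higher and 29.6% lower. In 5 of the 9 genes every ADRr library lay above every parent library, in 1 every ADRr library lay below, and in 3 the groups overlapped, against 34.5% and 34.7% of all tested genes with ADRr wholly above and wholly below. Nothing is read from these counts, since the rule used the same contrast. The median log2 fold change of the 9 genes was 0.11, and that of all tested genes was -0.01.

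**Figure D1:**
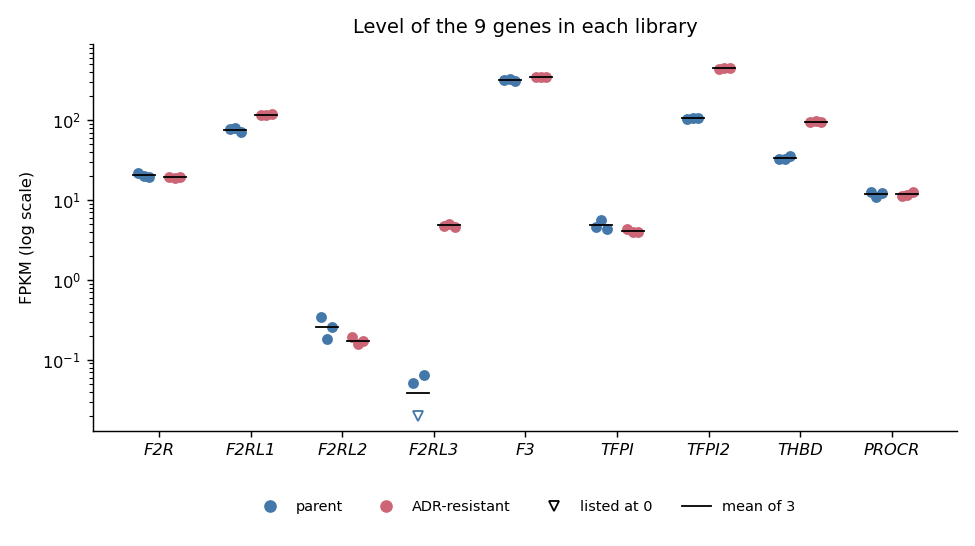
FPKM (fragments scaled by gene length and library size, log axis) of the 9 genes, with 1 point per library (blue, parent; red, ADRr), a black bar at the mean of 3, and an open triangle for the parent library in which F2RL3 was listed at 0. F2RL3, TFPI2, THBD and F2RL1 separate widely, and F3 is near the top of the range in both groups.

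F2RL3 encodes PAR4, the low-affinity thrombin receptor best known from platelets. Its gene (ENSG00000127533) lies at chr19:16888860-16892606 on the plus strand. The parent libraries held 3, 0 and 4 reads of it, and the ADRr libraries held 303, 293 and 299. In FPKM, which is per length, this was 0.051, 0 and 0.064 in parent and 4.76, 5.05 and 4.62 in ADRr. F2RL3 was thus at the edge of detection in the parent cells and well measured in every ADRr library, with no overlap. Pooled over libraries, 7 reads stood against 895, a ratio of 121 after scaling for library size, with an exact 95% interval of 58.7 to 303 that covers counting error only. The fitted log2 fold change was 6.85 (SE 0.28), the 8th largest increase of all tested genes. It ranged from 6.32 to 7.41 when 1 library was left out, and it shrank to 2.48 on the log2(FPKM + 1) scale, where the added 1 is far above the parent level. Among tested genes F2RL3 stood at the 0.5 percentile of FPKM in parent and at 50.8 in ADRr. F2RL3 passed the filter only through its ADRr reads, so a parent rank near the bottom was fixed in advance.

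F2RL1 encodes PAR2, the receptor for trypsin, tryptase and the complex of tissue factor with factor VIIa. Its gene (ENSG00000164251) lies at chr5:76818933-76835315 on the plus strand. F2RL1 stood at 76.5, 80.0 and 70.5 FPKM in parent and at 116, 116 and 119 FPKM in ADRr. Every ADRr library was above every parent library, and the means were 75.7 ± 4.82 and 117 ± 1.72 FPKM (SD, n = 3). The log2 fold change was 0.62 (SE 0.05), a 1.54-fold difference. F2RL1 was the most abundant of the 4 receptors per length in all 6 libraries.

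F2R encodes PAR1, the high-affinity thrombin receptor, which matrix metalloproteinases can also cut. Its gene (ENSG00000181104) lies at chr5:76716043-76735781 on the plus strand. F2R stood at 21.7, 20.2 and 19.7 FPKM in parent and at 19.2, 18.8 and 19.6 FPKM in ADRr. The highest ADRr library was just under the lowest parent library, but the distance between the means, 20.5 ± 1.04 against 19.2 ± 0.377 FPKM, was close to the spread among parent libraries. The log2 fold change of F2R was -0.10 (SE 0.06), and the gene was not called.

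F2RL2 encodes PAR3, which in several cells serves as a cofactor that presents thrombin to other receptors. Its gene (ENSG00000164220) lies at chr5:76615482-76623434 on the minus strand. F2RL2 had 20, 10 and 16 reads in parent and 12, 9 and 11 in ADRr, a range of 0.157 to 0.344 FPKM over all libraries. The groups overlapped. The log2 fold change was -0.59 (SE 0.42), and the pooled ratio of 0.661 had an exact 95% interval of 0.407 to 1.06, so no difference of F2RL2 was detectable at this depth. IQGAP2 overlaps F2RL2 on the opposite strand and held 2 to 11 reads per library.

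The make-up of the receptor transcripts therefore differed between the cells. Summed over the 4 receptors, the level was 98.6, 100 and 90.5 FPKM in parent and 140, 140 and 143 FPKM in ADRr. F2RL1 made up 78.4 ± 1.14% of the sum in parent and 82.9 ± 0.136% in ADRr (SD, n = 3). The share of F2R was 22.0, 20.1 and 21.7% in parent and 13.7, 13.4 and 13.7% in ADRr, although its own level barely differed. F2RL3 held 0.0408 ± 0.0366% in parent and 3.41 ± 0.186% in ADRr, and F2RL2 held 0.112 to 0.349% over all libraries. Of the thrombin receptors, F2R exceeded F2RL3 425-fold and 307-fold in the parent libraries where the ratio exists, and 4.03-fold, 3.73-fold and 4.23-fold in ADRr. F2RL1 exceeded F2R 3.70 ± 0.238-fold in parent and 6.10 ± 0.0789-fold in ADRr.

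**Figure D2:**
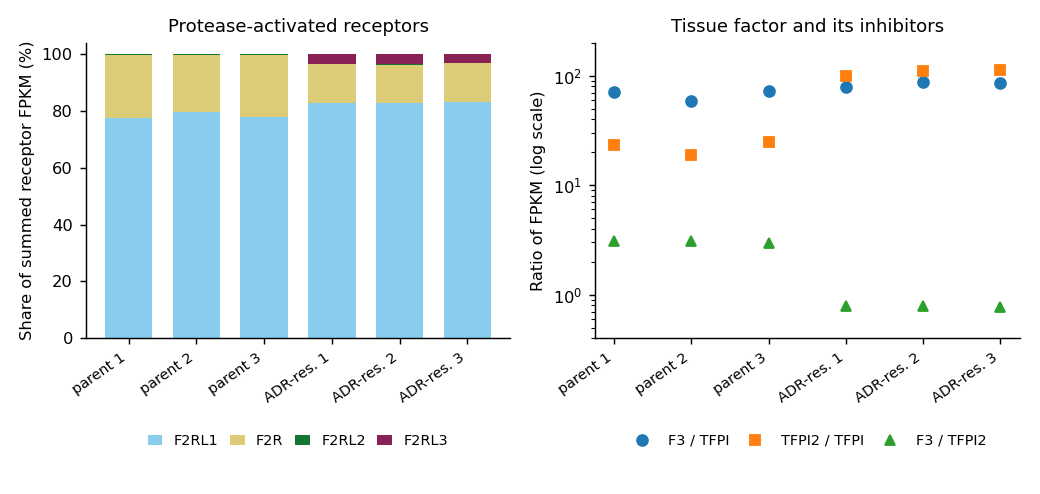
Left, share (%) of each receptor in the summed FPKM of the 4 receptors, 1 bar per library from 0 to 100. Right, ratios of FPKM (log axis) among F3, TFPI and TFPI2, 1 point per library. F2RL3 becomes visible only in the ADRr bars (3.41% on average), and the F3 to TFPI2 ratio is 2.93 to 3.09 in parent and 0.77 to 0.793 in ADRr.

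F3 encodes tissue factor, the membrane protein that starts coagulation. Its gene (ENSG00000117525) lies at chr1:94529225-94541800 on the minus strand. F3 stood at 322, 332 and 312 FPKM in parent and at 349, 350 and 348 FPKM in ADRr. The groups did not overlap, yet the log2 fold change was only 0.11 (SE 0.04), below the 1.2-fold bound, and F3 was not called. At the 99.6th percentile of tested genes in both groups, F3 was among the most abundant transcripts of the parent and the ADRr cells alike.

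TFPI2 encodes a secreted Kunitz-type inhibitor that acts on trypsin, plasmin and other proteases of the pericellular matrix. Its gene (ENSG00000105825) lies at chr7:93885396-93890991 on the minus strand. TFPI2 stood at 105, 107 and 106 FPKM in parent and at 440, 444 and 452 FPKM in ADRr. The 3 libraries of each group lay close together and the groups were far apart, at 106 ± 1.28 and 445 ± 6.12 FPKM (SD, n = 3). The log2 fold change was 2.06 (SE 0.05), a 4.18-fold difference, and it varied only from 2.05 to 2.09 over 15 other ways of computing it.

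TFPI encodes the inhibitor of the complex of tissue factor with factor VIIa. Its gene (ENSG00000003436) lies at chr2:187464230-187565760 on the minus strand. TFPI stood at 4.54, 5.70 and 4.29 FPKM in parent and at 4.40, 4.03 and 4.02 FPKM in ADRr. The groups overlapped, parent replicate 2 stood above the other libraries, and the log2 fold change was -0.23 (SE 0.09), not called. TFPI was called lower without parent replicate 1 (-0.28) and without parent replicate 3 (-0.31), both of which leave the high library in, and it was nearest to 0 without parent replicate 2 (-0.10).

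The transcript ratio of F3 to TFPI2 differed more between the groups than that of F3 to TFPI, and neither measures inhibition of tissue factor. The ratio of F3 to TFPI2, in FPKM, was 3.07, 3.09 and 2.93 in parent and 0.793, 0.789 and 0.770 in ADRr. TFPI2 thus stood above F3 in each ADRr library. The ratio of F3 to TFPI was 70.8, 58.2 and 72.6 in parent and 79.2, 86.9 and 86.5 in ADRr. TFPI2 exceeded TFPI 22.2 ± 3.05-fold in parent and 107.5 ± 6.71-fold in ADRr (SD, n = 3).

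THBD encodes thrombomodulin, the thrombin-binding surface protein first described on endothelium. Its gene (ENSG00000178726) lies at chr20:23045633-23049741 on the minus strand. THBD stood at 32.3, 32.8 and 35.5 FPKM in parent and at 94.5, 99.0 and 94.5 FPKM in ADRr. The groups were far apart, at 33.5 ± 1.68 and 96.0 ± 2.59 FPKM, with a log2 fold change of 1.51 (SE 0.05), a 2.85-fold difference. The endothelial marker sum, most of it ESAM, was higher in the same libraries, and its part in the THBD difference was not tested.

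PROCR encodes the receptor that holds protein C beside thrombomodulin. Its gene (ENSG00000101000) lies at chr20:35172073-35216240 on the plus strand. PROCR stood at 12.6, 10.9 and 12.2 FPKM in parent and at 11.4, 11.7 and 12.5 FPKM in ADRr. The groups overlapped almost fully, and the log2 fold change was -0.01 (SE 0.09), with a sign that depended on the library left out (-0.07 to 0.03) and on the scaling. MMP24OS, on the opposite strand, overlaps PROCR and held 1742 to 2363 reads per library against 300 to 395 for PROCR. Since the strand setting of the counting is not stated, how reads in the shared stretch were counted is not known. THBD exceeded PROCR 2.82 ± 0.234-fold in parent and 8.09 ± 0.472-fold in ADRr, in FPKM.

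**Figure D3:**
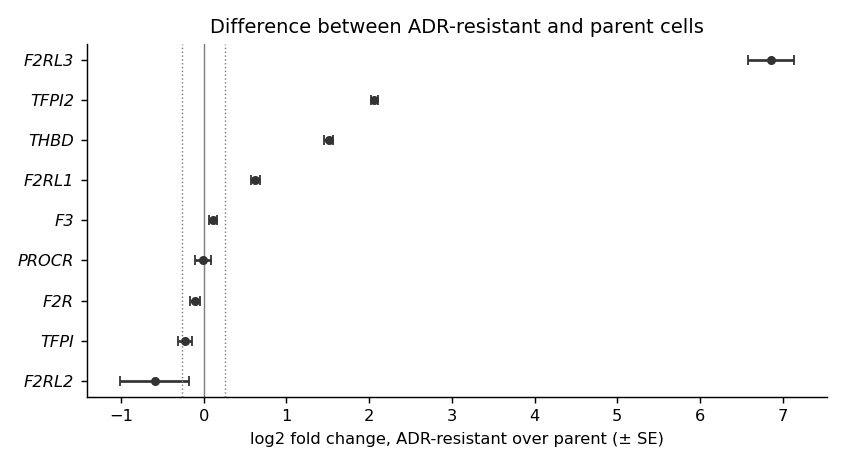
Fitted log2 fold change of ADRr over parent for each of the 9 genes with its SE (bars), sorted by size, with dotted lines at a fold change of 1.2 in either direction. F2RL3 stands at 6.85, TFPI2 at 2.06, THBD at 1.51 and F2RL1 at 0.62, and the bars of F2RL2 are the widest (SE 0.42).

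In order of FPKM the parent cells ran F3, TFPI2, F2RL1, THBD, F2R, PROCR, TFPI, F2RL2 and F2RL3, and the ADRr cells ran TFPI2, F3, F2RL1, THBD, F2R, PROCR, F2RL3, TFPI and F2RL2. Every neighbouring pair in both orders was separate in all 3 libraries of its group. The closest pair was F2RL3 and TFPI in ADRr, at 4.81 ± 0.217 and 4.15 ± 0.219 FPKM, where the lowest value of F2RL3 was 4.62 and the highest of TFPI was 4.40. The order thus changed at the top, where TFPI2 passed F3, and at the bottom, where F2RL3 passed TFPI and F2RL2.

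The promoter stretches of the 2 genes with the largest differences, F2RL3 and TFPI2, are shown because they differ in their number of CpG pairs. Each is 300 bases of the coding strand, 5′ to 3′, from 250 before to 50 after the RefSeq start (GRCh38.p14), with CpG pairs in capitals.
F2RL3: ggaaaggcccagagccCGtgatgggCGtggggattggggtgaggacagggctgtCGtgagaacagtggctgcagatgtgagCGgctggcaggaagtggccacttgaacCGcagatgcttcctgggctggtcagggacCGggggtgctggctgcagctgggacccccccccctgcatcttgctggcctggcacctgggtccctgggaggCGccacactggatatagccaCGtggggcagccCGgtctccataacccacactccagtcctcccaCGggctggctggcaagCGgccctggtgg
TFPI2: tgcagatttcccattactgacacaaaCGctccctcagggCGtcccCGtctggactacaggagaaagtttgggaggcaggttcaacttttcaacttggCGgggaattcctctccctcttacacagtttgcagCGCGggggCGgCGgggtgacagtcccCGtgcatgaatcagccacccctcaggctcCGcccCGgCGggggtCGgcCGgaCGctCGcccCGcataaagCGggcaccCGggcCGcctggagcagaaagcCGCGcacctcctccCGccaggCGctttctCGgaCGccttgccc
The F2RL3 stretch lies at chr19:16888749-16889048 on the plus strand and holds 11 CpG pairs. The TFPI2 stretch lies at chr7:93890704-93891003 on the minus strand and holds 26. The genes as counted start upstream of these RefSeq starts, at chr19:16888860 for F2RL3 and chr7:93890991 for TFPI2. Much of each stretch therefore lies within the counted gene. Among 35116 RefSeq promoter stretches of that length the median was 14, and 45.3% held fewer CpG pairs than F2RL3 and 69.9% fewer than TFPI2. RefSeq entries matched 7 of the 9 genes, and the F3 promoter had 38 CpG pairs, above 90.1% of all. The letters TGANTCA, a form of the AP-1 motif that is its own reverse complement, occurred in 7.7% of all promoter stretches. They occurred 2 times in F3, 1 time each in TFPI2 and F2RL2, and 0 times in F2RL3, F2RL1, TFPI and PROCR. The letters CACCC, searched on both strands, occurred in 59.9% of all stretches. They occurred 3 times each in TFPI2 and F3, 2 times in F2RL3, 1 time in F2RL2, and 0 times in F2RL1, TFPI and PROCR. These matches describe letters and not binding.

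F2R, F2RL1 and F2RL2 lie close together on chromosome 5, with 92609 bases between F2RL2 and F2R and 83152 between F2R and F2RL1. Within this stretch F2RL1 was higher in ADRr, F2R differed little and F2RL2 was barely detected. AGGF1, the next tested gene beyond F2RL1, had a log2 fold change of -0.20 (SE 0.10) and was not called. AC113404.3, a pseudogene 441299 bases before F2RL2, was not called either (-0.32, SE 0.44). F2RL3 lies apart on chromosome 19, and both of its neighbours were called higher. SIN3B, 8507 bases before F2RL3, rose by a log2 fold change of 0.62 (SE 0.06, edgeR's quasi-likelihood test, Benjamini-Hochberg adjusted p = 2.04e-09). CPAMD8 lies 341 bases after F2RL3 on the opposite strand, so that the 3′ ends of the pair face each other. It held 0, 1 and 5 reads in parent and 46, 36 and 35 in ADRr. The pooled ratio was 18.5 (exact 95% interval 8.26 to 51.5) and the log2 fold change 4.13 (SE 0.54). CPAMD8 passed the filter only through its ADRr reads, so a low parent level was fixed in advance. Whether reads of one gene of the pair were counted for the other was not tested.

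**Figure D4:**
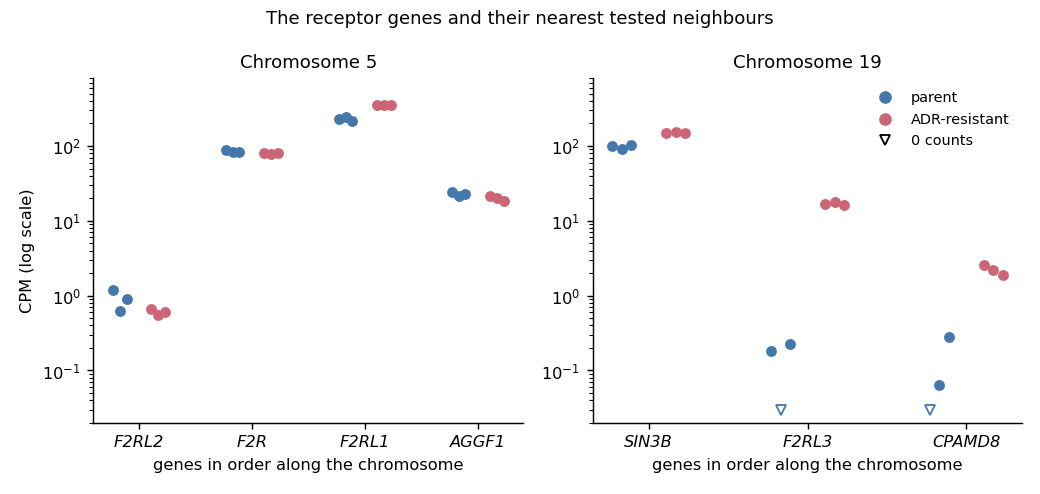
CPM (log axis) in each library (blue, parent; red, ADRr; open triangle, 0 counts) of the receptor genes and their nearest tested neighbours, in order along chromosome 5 (left) and chromosome 19 (right). CPAMD8 goes from 0 to 5 reads in parent to 35 to 46 in ADRr beside F2RL3, while F2R and AGGF1 hardly differ beside F2RL1. AC113404.3, the nearest tested gene before F2RL2, is not drawn.

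The neighbours of the other genes differed in both directions. GNG11, a G protein gamma subunit gene 30708 bases after TFPI2, was called higher (log2 fold change 0.66, SE 0.05), and CALCR, the calcitonin receptor gene on the other side, was called lower (-1.18, SE 0.22). ABCD3, 10559 bases before F3, was called lower (-0.60, SE 0.06), and SLC44A3-AS1 on the other side was not called (-0.40, SE 0.41). EDEM2 and MMP24 on either side of PROCR were called higher (0.50, SE 0.10) and lower (-1.001, SE 0.15). GULP1 and FAM171B around TFPI were called higher (0.55, SE 0.07) and lower (-0.45, SE 0.11), and RPL41P1 and NXT1 around THBD were not called.

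The profile of F2RL3 over the 6 libraries was most like that of GCKR, GMFG, GYPC, GJA1 and ALOXE3, by Euclidean distance in log2 CPM (1.89, 2.08, 2.37, 2.48 and 2.49 in that order). GCKR had 5, 4 and 6 reads in parent and 234, 220 and 237 in ADRr. GMFG had 1, 3 and 4 reads in parent and 193, 152 and 178 in ADRr, and these 5 genes lie on chromosomes 2, 6, 17 and 19. All 5 share with F2RL3 a near absence in parent and a modest level in ADRr, which follows from how they were picked.

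Genes around the receptors were followed in 6 lists, none of which holds any of the 9 genes. Of 148 list genes 97 were tested, 41 were called higher, 22 lower and 34 were not called, and their median log2 fold change was 0.20 beside -0.01 for all tested genes. Against backgrounds of 29.2% called higher and 29.6% lower, the lists held more genes called higher, in counts that carry no test. The lists were chosen with earlier results of these data known, so nothing is read from that excess. Some list genes, such as MMP1 and SERPINB2, passed the filter only through their ADRr reads.

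Of 29 genes in the list of receptor-activating proteases, 8 were tested, 6 rose and 1 fell, with a median log2 fold change of 1.64. The list also takes in plasminogen activators and a proprotein convertase, and cleavage of a receptor was not measured. MMP1, a collagenase that can cut PAR1, had 17, 2 and 15 reads in parent and 2077, 1812 and 2025 in ADRr. Its log2 fold change was 7.35 (SE 0.16), with 6.89 to 7.76 when 1 library was left out. On the log2(FPKM + 1) scale the MMP1 value was 5.43. TMPRSS2, a membrane serine protease that can cut PAR2, rose from 95, 72 and 97 reads to 734, 628 and 720 (2.90, SE 0.11). PLAT, the tissue plasminogen activator gene, rose from 23.7 ± 0.989 to 97.0 ± 2.62 FPKM (2.03, SE 0.05). CTSS, PRSS3 and PLAU rose as well, by log2 fold changes of 1.86, 1.41 and 1.35, although reads of PRSS3 may be shared with its near copies PRSS1 and PRSS2. FURIN, a proprotein convertase, fell from 60.5 ± 5.17 to 31.8 ± 0.721 FPKM (-0.93, SE 0.06). ST14, encoding matriptase, was not called (-0.17, SE 0.15). Transcripts of the circulating proteases were almost absent, with F2, the thrombin gene, at 0 to 2 reads, F7 at 0 to 2 reads and PLG at 0 reads in every library.

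Of 16 protease inhibitors and surface cofactors, 8 were tested, 6 rose and 0 fell, with a median of 0.57. SERPINB2, an inhibitor of plasminogen activators, had 2, 0 and 3 reads in parent and 59, 53 and 87 in ADRr, a pooled ratio of 37.8 (exact 95% interval 15.9 to 118) and a log2 fold change of 5.14 (SE 0.48). The SERPINB2 value was 5.77 without parent replicate 3 and 1.17 on the log2(FPKM + 1) scale. SERPINE2, protease nexin and an inhibitor of thrombin, rose from 1.70 ± 0.192 to 4.195 ± 0.0134 FPKM (1.30, SE 0.09). SPINT2, a Kunitz-type inhibitor of membrane serine proteases, rose by a log2 fold change of 0.86 (SE 0.06). The cofactor gene PROS1 was not called (0.19, SE 0.11).

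Of 28 coagulation factors and the proteins that make or expose them, 15 were tested, 3 rose and 5 fell, with a median of -0.03. PLAUR, the urokinase receptor, rose from 13.4 ± 1.29 to 26.4 ± 1.21 FPKM (0.97, SE 0.07), and GGCX and MCFD2, which serve factor carboxylation and secretion, rose by 0.40 (SE 0.07) and 0.37 (SE 0.06). S100A10, a partner of annexin A2 at the plasminogen-binding surface, fell by 0.84 on the log2 scale (SE 0.05). GAS6 fell by 0.57 (SE 0.06), and ANO6, the scramblase that exposes phosphatidylserine, fell by 0.47 (SE 0.06).

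Of 29 G proteins and effectors that the receptors use, 25 were tested, 7 rose, 5 fell and 13 were not called, with a median of 0.01. PRKCE, a protein kinase C, rose from 2.15 ± 0.158 to 9.09 ± 0.483 FPKM (2.07, SE 0.07), GNA15 by 0.89 (SE 0.07) and ROCK2 by 0.86 (SE 0.06). GNAI2 fell by 0.75 (SE 0.05), RHOA by 0.63 (SE 0.05) and GNA11 by 0.52 (SE 0.06). GNAQ, the subunit most often named with these receptors, was not called (-0.02, SE 0.09).

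Of 25 genes of receptor desensitisation and traffic, 24 were tested, 9 rose and 8 fell, with a median of 0.18. ARRB2, an arrestin that binds activated receptors, rose from 280, 201 and 259 reads to 1022, 968 and 1083 (1.98, SE 0.09). NEDD4L, a ubiquitin ligase, rose by 1.87 (SE 0.05) and GRK5, a receptor kinase, by 1.05 (SE 0.10). CAVIN1 and CAV1, the coat and core proteins of caveolae, fell by 1.98 (SE 0.05) and 1.30 (SE 0.05), from 229.7 ± 11.6 to 58.4 ± 0.366 FPKM and from 242 ± 13.3 to 98.5 ± 1.77 FPKM. RAB11A, of the recycling endosome, fell by 0.90 (SE 0.06).

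Of 21 genes known to be induced by thrombin or receptor agonists, 17 were tested, 10 rose and 3 fell, with a median of 0.52. VEGFA rose from 10.5 ± 0.157 to 56.6 ± 0.709 FPKM (2.42, SE 0.05, edgeR's quasi-likelihood test, Benjamini-Hochberg adjusted p = 7.82e-21). IL6 rose by 1.97 (SE 0.05), and CCL2, with 36 pooled reads in parent and 127 in ADRr, by 1.73 (SE 0.37). CTGF fell by 1.77 (SE 0.05) and EDN1 by 1.41 (SE 0.09). NR4A1 had 45, 18 and 42 reads in parent and 26, 11 and 24 in ADRr (-0.85, SE 0.36, edgeR's quasi-likelihood test, Benjamini-Hochberg adjusted p = 0.0441), and its groups overlapped. Without parent replicate 1 (-0.63) or 3 (-0.74), without ADRr replicate 2 (-0.59) or 3 (-0.96), in DESeq2 (-0.86) and in limma on log2(FPKM + 1) without a filter (-0.15) NR4A1 was not called. The early response genes EGR1 and FOS were not called (0.14, SE 0.09, and -0.14, SE 0.34). The cells were not treated with an agonist, and other stimuli induce the same genes.

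**Figure D5:**
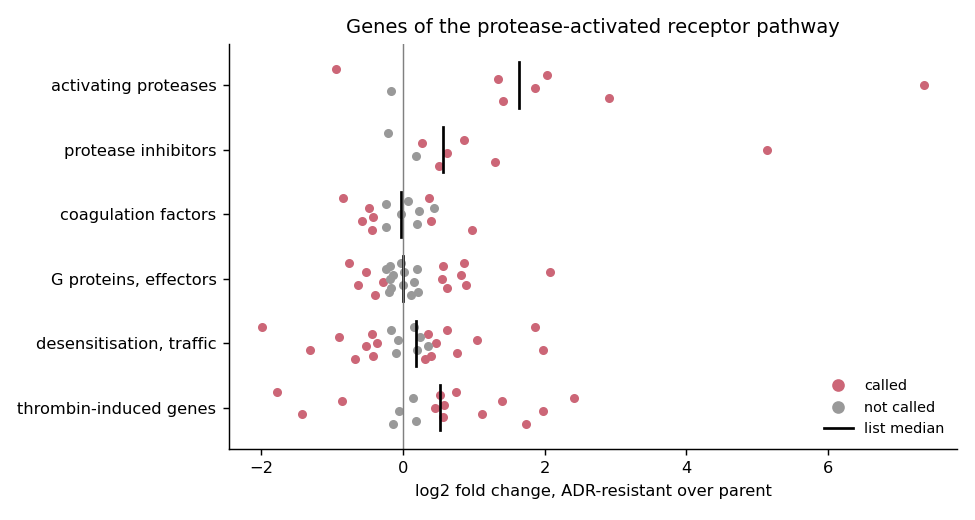
Log2 fold change of ADRr over parent (x axis) of the tested genes in each of the 6 lists (rows), 1 point per gene, red where called and grey where not, with a black bar at the list median. The medians run from -0.03 (coagulation factors) to 1.64 (activating proteases), and most points of the G protein list lie within 1 unit of 0.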

How the data were processed

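RNA of 3 parent and 3 ADRr libraries of MDA-MB-231 cells was sequenced. The authors deposited raw counts per gene, together with FPKM values that the authors scaled by gene length and library size. The submitters' processing notes name fastp, HISAT2 2.0.5, featureCounts 1.5.0-p3 and DESeq2 1.20.0, with GRCh38; the strand setting is not given in the sources used here. Gene positions in the deposited table matched GENCODE release 29 for all 58735 genes. Columns of the deposited tables were assigned to libraries by name, and 0 were left unassigned.

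Counts were fitted across all genes with edgeR 4.0.16 in R 4.3.3 (filterByExpr, TMM factors, quasi-likelihood test, ADRr against parent, Benjamini-Hochberg over 15242 genes). A gene was called at an adjusted p up to 0.05 with a difference of 1.2-fold or more, read from the bounds the study set. CPM used library sizes multiplied by TMM factors, a prior count of 2 for log2 CPM, and FPKM was used to compare genes. Ratios of pooled counts have exact 95% intervals, which cover counting error only, as does the floor of 3 counts. The fit code was checked on simulated counts with few genes changed and a common dispersion. That setting is simpler than these data, so the check does not measure accuracy here. Figures were drawn with matplotlib 3.10.9 in Python 3.11.15.

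The 9 genes and the lists were chosen with earlier results of these data known. All 9 genes are named. In each list the 3 largest increases and decreases among called genes are named, with direct partners of the 9 genes, the nearest tested gene on each side, and the 5 genes closest to F2RL3. Genes named for very low counts outside these rules were chosen after their values were seen. Alternatives were DESeq2 1.42.0, limma 3.58.1 on log2(FPKM + 1) or log2(FPKM + 0.1), other scalings, filters and call rules, a replicate block, and each library left out in turn. Amino acid sequences were not used here, and 1 list gene is not reported by name.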

Additional observations from a re-analysis of the deposited data

How the results depend on the processing

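The 4 genes called higher (F2RL3, TFPI2, THBD, F2RL1) stayed at a count of 4 under other scalings, DESeq2, the FPKM fits and every left-out library, with 3 for a minimum of 10 counts in every library, which drops F2RL3, 3 where the log2 fold change had to reach 1.2 and 5 for the adjusted p alone, which adds F3. The count called lower, 0, ran from 0 to 1 when 1 library was left out (TFPI) and was 1 with the adjusted p alone. List genes called higher went from 41 to 15, and lower from 22 to 4, when the absolute log2 fold change had to reach 1.2, by construction. PROCR turned from -0.01 to 0.0174 with library size alone and to 0.0004 with the 10-count minimum, and ran from -0.0717 to 0.0292 over left-out libraries (0.0272 and 0.0057 without parent replicates 1 and 3, 0.0292 and 0.0033 without ADRr replicates 1 and 2); its sign is not determined.

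Replicate numbers did not pair the libraries (correlation of deviations 0.00735, -0.0213 and -0.0457). With the replicate block the 9 genes gave 4 higher and 0 lower, the lists 41 higher, and all genes 4406 higher and 4464 lower, against 4451 and 4507 without it. Depth limits F2RL2 in both groups and F2RL3 in parent.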

Other observations

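Several genes beside or overlapping the 9 were too low for the fit and are given as reads in parent and then ADRr. AC002076.1, an antisense gene that overlaps the start of TFPI2, had 0, 0 and 0 reads and then 9, 7 and 10. TFPI2 itself had 4764, 4661 and 5128 and then 21596, 19909 and 22559, and without a stated strand setting the antisense reads cannot be told apart from reads of TFPI2. AC007319.1, antisense to TFPI, had 5 to 11 reads in all libraries.

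In the list of receptor-activating proteases, PRSS2, a trypsin gene with near copies, had 1, 0 and 1 reads and then 12, 11 and 10. PRSS8, encoding prostasin, had 3, 2 and 8 reads in parent and 0 in every ADRr library. F10, the gene of coagulation factor X, had 4, 3 and 3 reads and then 8, 10 and 6. The phospholipase genes PLCB1 and PLCB4, which couple G proteins to calcium release, had at most 2 and 4 reads in parent and 0 in ADRr, while PLCB3 had 1978 to 2481 reads in all 6 libraries and was not called. None of the low values was tested.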
